A study of Mus musculus with 6 samples.

Results

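The transcripts described here encode the enzymes that dispose of superoxide and hydrogen peroxide in primary mouse embryonic fibroblasts (MEFs): the 6 peroxiredoxins Prdx1 to Prdx6, the sulfiredoxin Srxn1, the superoxide dismutases Sod1 and Sod2, and the catalase Cat. The 10 genes were chosen by name, and each was found once, through its Ensembl identifier, among the 43346 rows of the count table. All 10 passed the filter on low counts, as did 14000 genes of the table in all. The MEFs were C57BL/6 cells at passage 9, a mixed culture with a limited life span, given for 24 h either the solvent DMSO (3 libraries) or 3 µM erastin (3 libraries). Erastin blocks cystine uptake through the antiporter system xc- and is used to induce ferroptosis, in which cells die as iron promotes the oxidation of their lipids. The culture medium of both groups contained 2-mercaptoethanol, a reducing agent. According to the series' design the experiment was done 3 times, and nothing says that the cultures came from separate embryos. The p-values therefore set the difference between groups against the spread among these libraries, not among embryos.

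Superoxide dismutases turn superoxide into hydrogen peroxide, SOD1 mainly in the cytosol and SOD2 in the mitochondrial matrix. Catalase, a peroxisomal enzyme, breaks hydrogen peroxide down without a reducing partner, whereas peroxiredoxins reduce it with a reactive cysteine. In most peroxiredoxins thioredoxin then restores that cysteine, and in PRDX6 glutathione does. PRDX1, PRDX2, PRDX3 and PRDX4 are typical 2-Cys enzymes, PRDX5 an atypical 2-Cys and PRDX6 a 1-Cys enzyme. The cysteine of the typical 2-Cys enzymes can be overoxidised by an excess of peroxide, and sulfiredoxin reverses that with ATP. SRXN1 and PRDX1 are known targets of the transcription factor NRF2, which binds antioxidant response elements.

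Stretches upstream of 4 of the 10 genes are shown. The 4 are Srxn1 and Prdx1, which are known NRF2 targets, Cat, which rose as well, and Prdx2, which fell. The windows reach from 250 bases before to 50 bases after a RefSeq start site (assembly GRCm38.p6), and 9 of the 10 genes had one, Prdx6 being the one unmatched. Only bases ahead of both the RefSeq and the GENCODE M21 start are printed, 5′ to 3′ on the strand of the gene. The stretches lie at chr2:152105274-152105515 (Srxn1, plus strand), chr4:116685349-116685543 (Prdx1, plus strand), chr2:103485161-103485403 (Cat, minus strand) and chr8:84969372-84969586 (Prdx2, plus strand). Capitals mark matches on either strand to TGACNNNGC, the core of the antioxidant response element, and to TGANTCA, the AP-1 site, which can overlap each other.
Srxn1: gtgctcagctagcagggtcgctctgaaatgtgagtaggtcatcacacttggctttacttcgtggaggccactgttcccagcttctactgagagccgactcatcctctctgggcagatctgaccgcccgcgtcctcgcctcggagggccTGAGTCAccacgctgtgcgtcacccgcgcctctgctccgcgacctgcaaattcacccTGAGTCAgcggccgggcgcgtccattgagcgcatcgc
Prdx1: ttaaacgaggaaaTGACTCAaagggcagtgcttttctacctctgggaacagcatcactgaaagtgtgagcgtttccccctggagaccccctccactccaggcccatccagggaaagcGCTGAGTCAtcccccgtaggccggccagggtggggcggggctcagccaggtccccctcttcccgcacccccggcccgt
Cat: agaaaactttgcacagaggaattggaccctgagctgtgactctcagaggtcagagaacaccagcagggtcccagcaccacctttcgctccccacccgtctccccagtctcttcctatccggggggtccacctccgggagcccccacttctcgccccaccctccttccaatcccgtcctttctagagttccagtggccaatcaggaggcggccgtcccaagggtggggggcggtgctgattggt
Prdx2: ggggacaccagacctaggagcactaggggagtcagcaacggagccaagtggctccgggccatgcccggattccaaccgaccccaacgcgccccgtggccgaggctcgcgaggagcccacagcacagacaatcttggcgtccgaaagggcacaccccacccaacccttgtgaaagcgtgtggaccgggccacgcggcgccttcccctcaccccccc

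The Srxn1 window held TGAGTCA at -102 to -96 and again at -45 to -39, counted from the RefSeq start. Followed by gc, the latter differs from TGACNNNGC only in a G for the C, which the search did not allow. The window held 1 match to TGACNNNGC beyond the printed stretch, at 29 to 37 after the start. In Prdx1, TGACTCA lay at -237 to -231, and TGAGTCA at -131 to -125 was part of a TGACNNNGC match on the opposite strand (TGACTCAGC, -133 to -125). Of the 9 windows, 2 (Srxn1 and Prdx1) matched TGANTCA and 3 (those 2 and Sod1) matched TGACNNNGC. Among all 32851 windows of the table, 7.81% held TGANTCA and 12.4% held TGACNNNGC on at least 1 strand. The Sod1 match lay at -56 to -48, and Sod1 did not pass the threshold used below. These are matches of letters and were not tested as binding sites. Whether matches go with changes in level was not tested.

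Total counts ran from 13333911 to 20509970 per library, and a count of 3, taken as the floor, was worth 0.14 to 0.234 CPM. CPM is the count relative to a library size scaled with TMM (trimmed mean of M-values) factors. Libraries of a group differed by more than sampling noise (chi-square per degree of freedom 11.0 to 19.2 for the 6 pairs within groups, 78 to 123 for the 9 pairs between them), and each was counted as 1 replicate. The fibroblast markers, 10 of 10 detected, summed to 35802 to 38799.9 CPM in DMSO and 25692 to 27127 CPM in erastin libraries; 8 of them fell, all but Dcn and Fn1. The 6 leukocyte markers summed to at most 43.3 CPM in DMSO and 56.8 CPM in erastin, the 5 epithelial ones to at most 3.17 CPM in either group and the 4 erythroid ones to at most 0.151 CPM, with Hbb-bs at 0 throughout. Endothelial markers (4) summed to 4.66 to 7.1 and 13.2 to 16.4 CPM, mostly from Kdr and Tek, which rose, with Pecam1 and Cdh5 at no more than 0.778 CPM. Muscle precursor markers (4) summed to 35.5 to 45.4 and 65 to 68.5 CPM, carried by Des, which rose, with Myod1, Myf5 and Myog at no more than 0.467 CPM. The part of these shifts in the results was not tested. In bulk RNA, fewer cells of a type and less RNA per cell cannot be told apart.

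With erastin, 4 of the 10 genes rose (Srxn1, Prdx6, Cat and Prdx1), 4 fell (Prdx2, Prdx4, Prdx5 and Prdx3), and Sod1 and Sod2 did not pass. A gene passed where its adjusted p from the quasi-likelihood test of edgeR was under 0.05. Across all 14000 genes tested 43.1% passed, 21.6% as higher and 21.5% as lower. In the same 8 genes, the erastin libraries did not overlap the DMSO libraries, a pattern seen in 52.5% of the genes tested. The median log2 fold change of the 10 genes was -0.13, against -0.0014 for all genes tested. The peroxiredoxins thus divided, 2 higher and 4 lower, while Srxn1 had the largest change of the 10.

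**Figure D1:**
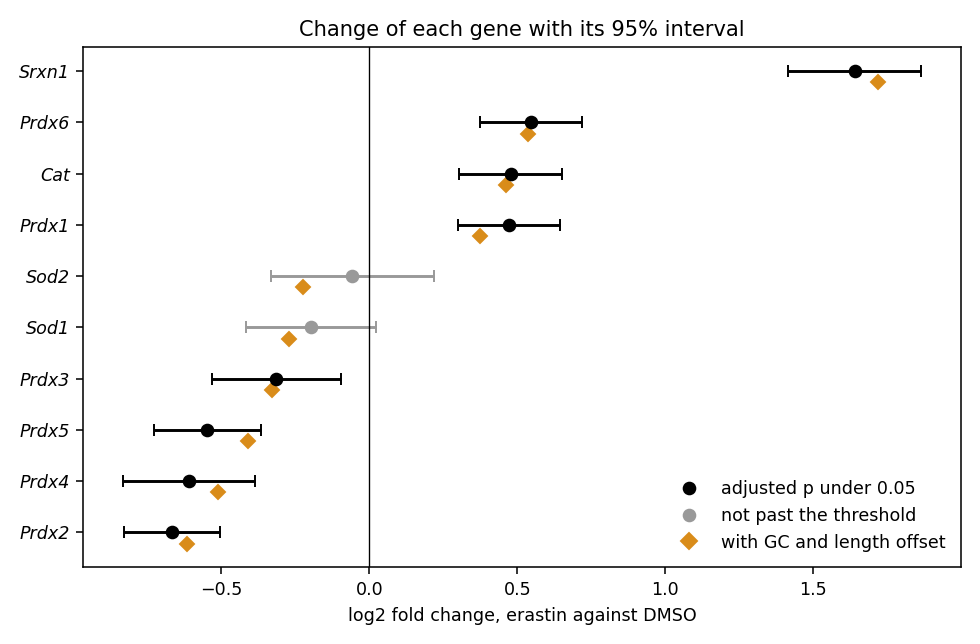
Log2 fold change of each of the 10 genes, erastin against DMSO, with its 95% interval (edgeR, 3 libraries per group; black, adjusted p-value under 0.05; grey, not past it) and, as diamonds, the value after an offset for GC content and transcript length. Srxn1 stands apart at 1.64, Prdx1, Cat and Prdx6 lie between 0.47 and 0.55, and Prdx2 is lowest at -0.67.

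Srxn1 (ENSMUSG00000032802.8, chr2:152105516-152111376 in GENCODE M21), which restores overoxidised peroxiredoxins, stood at 91.7, 108 and 96.7 CPM in DMSO replicates 1, 2 and 3. In erastin replicates 1, 2 and 3 it reached 330, 337 and 255 CPM. Replicate 3 was the lowest of the erastin libraries, still far above every DMSO library. The means were 98.6 ± 8.12 and 308 ± 45.5 CPM (SD, n = 3 each), a 3.12-fold rise (edgeR: 1.64 ± 0.11 on the log2 scale ± SE, adjusted p = 2.04e-08). A lower log2 fold change was found for 98% of all genes tested.

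Prdx1 (ENSMUSG00000028691.8, chr4:116685544-116700822), the abundant cytosolic peroxiredoxin, measured 309, 281 and 251 CPM in the DMSO libraries and 406, 390 and 371 CPM in the erastin libraries. It rose 1.39-fold (280 ± 28.8 to 389 ± 17.4 CPM as mean ± SD, n = 3; edgeR: 0.47 ± 0.08 on the log2 scale ± SE, adjusted p = 0.000267). The DMSO libraries spread more widely than the erastin libraries, without reaching them. Prdx6 (ENSMUSG00000026701.11, chr1:161240112-161251219), the 1-Cys enzyme that can also act on phospholipid hydroperoxides, measured 92.4, 93.5 and 86.0 CPM in DMSO and 137, 135 and 125 CPM in erastin libraries. Its rise was 1.46-fold (90.6 ± 4.03 to 132 ± 6.43 CPM as mean ± SD, n = 3; edgeR: 0.55 ± 0.08 on the log2 scale ± SE, adjusted p = 6.86e-05). Prdx1 and Prdx6 were thus the pair of peroxiredoxins that rose.

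Prdx2 (ENSMUSG00000005161.11, chr8:84969587-84974834), the other cytosolic typical 2-Cys enzyme, moved the other way from Prdx1. It measured 231, 248 and 219 CPM in DMSO and 141, 152 and 146 CPM in erastin libraries. The fall was 1.59-fold (233 ± 14.7 to 147 ± 5.54 CPM as mean ± SD, n = 3; edgeR: -0.67 ± 0.08 on the log2 scale ± SE, adjusted p = 5.62e-06), the largest among the 4 peroxiredoxins that fell. Prdx4 (ENSMUSG00000025289.11, chrX:155323918-155340754), the peroxiredoxin of the endoplasmic reticulum, measured 95.1, 83.6 and 71.9 CPM in DMSO and 53.9, 52.5 and 58.0 CPM in erastin libraries. It fell 1.52-fold (83.5 ± 11.6 to 54.8 ± 2.84 CPM as mean ± SD, n = 3; edgeR: -0.61 ± 0.10 on the log2 scale ± SE, adjusted p = 0.00026). Prdx4 spread widely over the DMSO libraries, the lowest of which was still above every erastin library.

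Prdx5 and Prdx3 encode peroxiredoxins of mitochondria, PRDX5 being found in peroxisomes and cytosol too. Prdx5 (ENSMUSG00000024953.12, chr19:6906697-6910106) measured 115, 102 and 105 CPM in DMSO and 75, 73.8 and 70.7 CPM in erastin libraries. It fell 1.46-fold (107 ± 6.74 to 73.2 ± 2.23 CPM as mean ± SD, n = 3; edgeR: -0.55 ± 0.08 on the log2 scale ± SE, adjusted p = 9.4e-05). Prdx3 (ENSMUSG00000024997.7, chr19:60864051-60874556) measured 62.8, 52.9 and 67.0 CPM in DMSO and 47.7, 49.4 and 49.5 CPM in erastin libraries. DMSO replicate 2 was the lowest of its group and lay close above the highest erastin library. The fall was 1.25-fold (60.9 ± 7.23 to 48.9 ± 1.02 CPM as mean ± SD, n = 3; edgeR: -0.32 ± 0.10 on the log2 scale ± SE, adjusted p = 0.0212). It was the weakest of the 8 calls: the adjusted p-value was 0.0645, 0.0793 and 0.0815 without DMSO replicate 1, DMSO replicate 3 or erastin replicate 1, and 0.0644 with scaling by total count only (range over all its alternatives 0.00784 to 0.103).

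**Figure D2:**
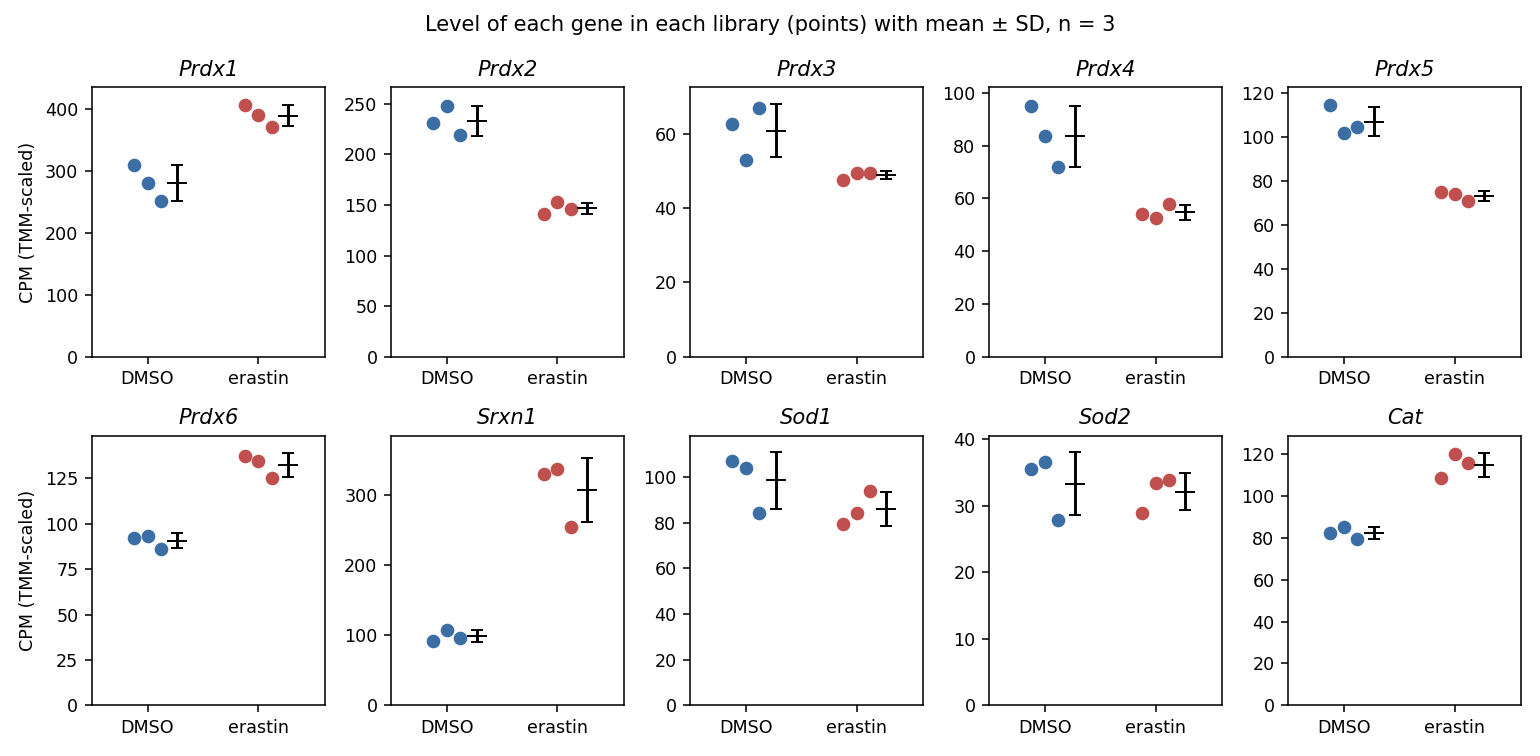
Level of each of the 10 genes in CPM in the 3 DMSO (blue) and 3 erastin (red) libraries, in the order of their replicate numbers, with the mean and SD beside them; each panel has its own axis starting at 0. The groups are separate for 8 genes and overlap for Sod1 and Sod2.

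The sum of the peroxiredoxins depended on the scale. Together the 6 mRNAs took 905, 861 and 800 CPM in DMSO and 861, 853 and 820 CPM in erastin libraries, means of 855 ± 52.6 and 845 ± 21.4 CPM (SD, n = 3 each). Per length, the sum was 462 to 573 TPM (506 ± 59.1) in DMSO and 510 to 665 TPM (583 ± 77.8) in erastin libraries; the groups overlapped on both scales. The makeup of the sum differed. In reads per kb of exon, Prdx1 made up 27.5% to 30.1% of the peroxiredoxin total in DMSO and 42.1% to 44.3% in erastin libraries. Prdx6 went from a mean of 5.93% ± 0.23 to 9.28% ± 0.267, and Prdx2 from 24% ± 1.67 to 16.2% ± 0.716 (SD, n = 3 each). Prdx4 and Prdx5 had smaller shares with erastin (12.4% against 8.78% and 15.7% against 11.5%), and the shares of Prdx3 overlapped (11.3% to 15.1% and 10.7% to 11.6%). Shares depend on the length used: with the longest protein-coding transcript, chosen after the data were seen, Prdx2 (28.1%) led Prdx1 (23.7%) in DMSO, and Prdx1 (36.6%) led Prdx2 (19.7%) in erastin libraries.

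**Figure D3:**
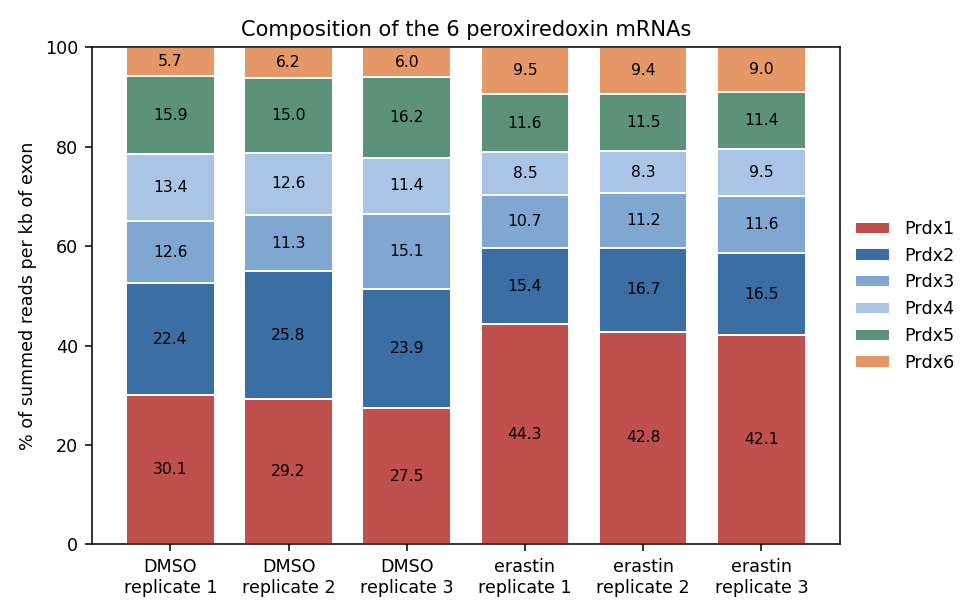
Share of each peroxiredoxin in the summed reads per kb of exon of the 6, in percent, 1 bar per library. The red Prdx1 segment is 27.5% to 30.1% in the 3 DMSO bars and 42.1% to 44.3% in the 3 erastin bars.

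Ratios within a library do not depend on how the libraries are scaled to one another, so 6 of them were compared, in log2 units of reads per kb of exon. Each of the 6 was separated between the groups. Each gave an exact two-sided permutation p = 0.1 (adjusted over the 6, 0.1), the smallest that 3 against 3 libraries can give. All but Sod2 to Sod1 contain genes that passed above, so their separation is no evidence independent of those calls. How often ratios of other genes separate was not computed. Srxn1 relative to the sum of its potential substrates Prdx1, Prdx2, Prdx3 and Prdx4 was -3.03, -2.71 and -2.77 in DMSO and -1.02, -0.98 and -1.35 in erastin libraries. That ratio was 3.29 times as high with erastin. Prdx1 relative to Prdx2 went from 0.27 ± 0.13 to 1.41 ± 0.10 (SD, n = 3), which is 2.21 times as high.

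The mitochondrial pair Prdx3 and Prdx5 relative to Prdx1, Prdx2 and Prdx6 went from -1.04 ± 0.17 to -1.60 ± 0.04 (SD, n = 3), and Prdx4 relative to Prdx1 and Prdx2 from -2.09 ± 0.11 to -2.76 ± 0.12. Both were lower in every erastin library than in any DMSO library, by factors of 1.47 and 1.58. Both denominators held Prdx2, which fell, and Prdx1, which rose, and the first also held Prdx6, which rose. On the log2 scale Prdx2 changed by -0.67, against -0.61, -0.55 and -0.32 for Prdx4, Prdx5 and Prdx3. None of these fell more than Prdx2. Cat relative to Sod1 and Sod2, the peroxide-removing against the peroxide-forming enzymes, went from 0.17 ± 0.15 to 0.82 ± 0.10, or 1.57 times as high. Sod2 relative to Sod1 moved least, from -2.90 ± 0.05 to -2.76 ± 0.08, or 1.11 times as high. The levels of the ratios with Sod1 depend on the length used. With the longest protein-coding transcript, Cat, Sod1 and Sod2 stood at mean levels of 43.7, 214 and 7.9 TPM in DMSO libraries. In erastin libraries they stood at 73.7, 226 and 9.18 TPM, so Cat was below Sod1 in both groups.

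**Figure D4:**
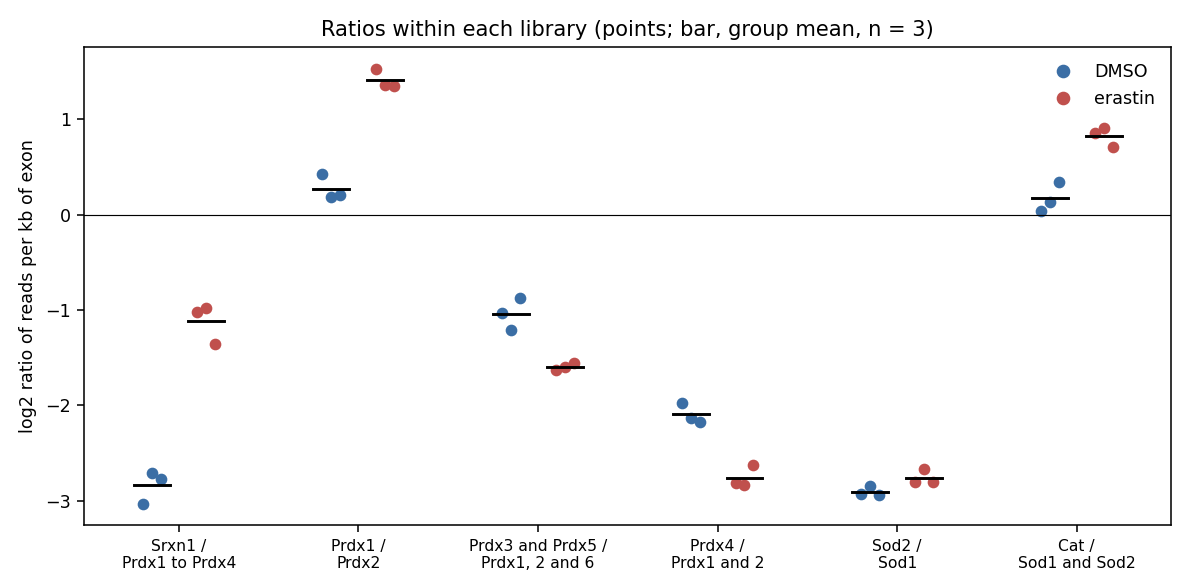
Log2 ratio of reads per kb of exon between members in each of the 3 DMSO (blue) and 3 erastin (red) libraries, with the group means as bars. All 6 ratios are separated, by 1.72 in the mean for Srxn1 to its substrates and by 0.15 for Sod2 to Sod1.

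Neither superoxide dismutase passed the threshold. Sod1 (ENSMUSG00000022982.9, chr16:90220754-90226329), the copper and zinc enzyme, measured 107, 104 and 84.5 CPM in DMSO and 79.7, 84.3 and 94.1 CPM in erastin libraries. The groups overlapped through DMSO replicate 3 and erastin replicate 3 (98.6 ± 12.3 and 86 ± 7.36 CPM, SD, n = 3; log2 fold change -0.20, 95% interval -0.42 to 0.02, edgeR adjusted p = 0.136). Without DMSO replicate 3 the log2 fold change was -0.30 (edgeR adjusted p = 0.0198), and with the GC and length offset -0.27 (edgeR adjusted p = 0.0325), so the call depended on those choices (range over its alternatives 0.0198 to 0.38). Sod2 (ENSMUSG00000006818.4, chr17:13006846-13040063), the manganese enzyme, measured 35.5, 36.5 and 27.9 CPM in DMSO and 28.9, 33.4 and 33.9 CPM in erastin libraries. Its means were 33.3 ± 4.74 and 32.1 ± 2.75 CPM (SD, n = 3; log2 fold change -0.06, 95% interval -0.33 to 0.22, edgeR adjusted p = 0.752). The direction of so small a difference turned with the scaling: it was 0.0049 when libraries were scaled by total count only.

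Cat (ENSMUSG00000027187.6, chr2:103453849-103485160) measured 82.1, 85.4 and 79.5 CPM in DMSO and 109, 120 and 116 CPM in erastin libraries. The DMSO libraries lay close together, below every erastin library. Cat rose 1.39-fold (82.3 ± 2.91 to 115 ± 5.81 CPM as mean ± SD, n = 3; edgeR: 0.48 ± 0.08 on the log2 scale ± SE, adjusted p = 0.000246).

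Levels can be compared between genes only per length, here as TPM, a length-normalised level, from the union of annotated exons. In DMSO libraries Prdx1 (147 ± 23.3) and Prdx2 (121 ± 9.62) led, with overlapping ranges. Prdx5 (79.6 ± 9.89) stood apart below them. Prdx3 (65.5), Prdx4 (63.3), Srxn1 (55.4) and Cat (50.02) followed, each overlapping its neighbour, then Sod1 (39.6), Prdx6 (30.0 ± 2.59) and Sod2 (5.29 ± 0.911), each separate from the one before (means or mean ± SD, n = 3). With erastin, on this length, Srxn1 (214 ± 40.6) moved from the sixth to the second place, overlapping Prdx1 (251 ± 38.9), and Cat (85.9 ± 6.8) from the seventh to the fourth, overlapping Prdx2 (94.2 ± 8.55). Prdx5 (67.3), Prdx3 (64.9), Prdx6 (54.2), Prdx4 (51.2) and Sod1 (42.5) came next, each overlapping its neighbour, and Sod2 (6.26) stayed last. The union counts retained introns as exon, which weighs most on Sod1: with the longest protein-coding transcript, of 641 bases in place of 3970, Sod1 stood at 214 ± 34.3 in DMSO and 226 ± 27.2 TPM in erastin libraries. The other places depend on the length as well: with that transcript, Cat stood at 43.7 ± 2.58 in DMSO and 73.7 ± 4.71 TPM in erastin libraries, below all the others but Sod2 in DMSO and below all but Prdx3 and Sod2 with erastin. Srxn1, at 48.6 ± 2.58 and 184 ± 32.9 TPM, was above only Cat and Sod2 in DMSO and below only Prdx1 and Sod1 with erastin. The level moved by more than 1 SD in 17 of the 20 gene and group pairs. Apart from the peroxiredoxin sum above, TPM are set against each other within a group, not between groups.

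Some members share sequence or position with other genes. Prdx2 shares exon bases with the opposite-strand genes Junb (173) and Rnaseh2a (177), and Prdx5 shares 409 with the opposite-strand gene Trmt112. It is not stated whether counting used the strand, so reads there may be lost or misassigned. Junb rose from 81.1 ± 10.1 to 123 ± 17 CPM (edgeR adjusted p = 0.000525) and Trmt112 from 16.1 ± 0.784 to 20.7 ± 0.815 CPM (mean ± SD of n = 3; edgeR adjusted p = 0.0475, with 0.00192 to 0.132 over its alternatives, and not past the threshold without any 1 of the 6 libraries), opposite in direction to Prdx2 and Prdx5. Rnaseh2a did not pass. Scaf4, on the opposite strand at Sod1, shares no exon bases with it. The copies Prdx6b, Prdx6-ps2 and Prdx2-rs3 had at most 12 reads in any library, and how reads common to a gene and its copy were counted is not stated.

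Electrons reach most peroxiredoxins from thioredoxin, which thioredoxin reductase recharges. In a list of 11 thioredoxin and sestrin genes 3 rose and 5 fell, with a median log2 fold change of -0.09. That is 72.7% of the list, against 43.1% of all genes tested. Txnrd1, the cytosolic thioredoxin reductase, rose from 231 ± 10.8 to 867 ± 121 CPM (mean ± SD of n = 3; edgeR: 1.91 on the log2 scale, adjusted p = 1.52e-09), a larger fold than that of Srxn1. Its protein substrate Txn1 measured 109 ± 17.2 and 105 ± 9 CPM and mitochondrial Txn2 145 ± 7.86 and 137 ± 6.03 CPM, and neither passed. Txnrd3 and Sesn2 rose by 0.94 and 0.62 on the log2 scale, whereas the other sestrins, Sesn1 and Sesn3, fell by 0.86 and 0.98. Nxn (nucleoredoxin) fell by 1.58 and Txnip, the thioredoxin-binding arrestin, fell by 0.73.

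Of 8 glutathione peroxidases, a family named for removing peroxides with glutathione, 5 were tested. All 5 fell (4 with the GC and length offset), against 21.5% of all genes tested, with a median of -0.54. The count of rises was 0, also by an unadjusted p-value under 0.05 and by DESeq2. Gpx1 fell the most, from 308 ± 30.1 to 134 ± 3.6 CPM (mean ± SD of n = 3; edgeR: -1.20 on the log2 scale, adjusted p = 3.99e-08). Gpx7 and Gpx3 fell by 0.73 and 0.54. Among 9 genes of glutathione synthesis, reduction and glutaredoxins, 4 rose and 1 fell (median 0.36). That is 55.6% of them, against 43.1% of all genes tested. The smallest p-values were those of Gclm, Gclc and Gss, with log2 fold changes of 1.96, 1.63 and 0.63. Gstp1, whose product is known to load glutathione onto PRDX6, stood at -0.37 (edgeR adjusted p = 0.0196), and the call was lost after the GC and length offset (-0.04, edgeR adjusted p = 0.837; 0.00905 to 0.866 over its alternatives) and without DMSO replicate 2, erastin replicate 1 or erastin replicate 3 (0.0820, 0.0566 and 0.0681).

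Of 18 other NRF2 target genes 14 rose and 2 fell (88.9%, against 43.1% of all genes tested), with a median of 0.75. Hmox1 and Slc7a11 rose most, by 3.86 and 3.75 on the log2 scale, and Gclm followed them in p-value. Tkt and G6pdx, enzymes of the pentose phosphate pathway, fell by 1.02 and 0.36. Taldo1 and Pgd, of the same pathway, rose by 0.81 and 0.44 (edgeR adjusted p = 3.5e-06 and 0.000308). G6pdx did not pass without erastin replicate 1 (edgeR adjusted p = 0.0602, with 0.00117 to 0.0602 over its alternatives). Of the 10 members, Srxn1 alone was above that median of 0.75. A similar list was known to be mostly higher in these data when this one was drawn up, so its count is no independent evidence of direction; Gclm, Gclc and Txnrd1 also stand in lists above.

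Genes around Prdx4 in the endoplasmic reticulum mostly fell. Of 9 oxidative folding genes 6 fell and 1 rose (77.8%, against 43.1% of all genes tested). Their median was -0.71, against -0.61 for Prdx4 itself. The protein disulfide isomerase Pdia6 fell by 1.25 and P4hb, another, fell from 1304 ± 36.3 to 652 ± 17 CPM (mean ± SD of n = 3), whereas Ero1l, an oxidase that forms hydrogen peroxide as it makes disulfides, rose from 85.1 ± 8.01 to 319 ± 23.1 CPM (mean ± SD of n = 3; edgeR: 1.91 on the log2 scale, adjusted p = 1.11e-09). Ero1l was also first by p-value among 24 genes whose products form superoxide or hydrogen peroxide, of which 18 were tested. Of those, 4 rose and 5 fell (median 0.0078), or 50%, against 43.1% of all genes tested. Xdh (xanthine dehydrogenase) and Maoa rose by 1.41 and 0.53, and Cyba, the small subunit of NADPH oxidases, fell by 0.89. Nox4, an oxidase subunit, fell from 14.6 ± 5.04 to 8.05 ± 1.3 CPM (mean ± SD of n = 3, edgeR adjusted p = 0.0107), though the groups overlapped. Too low to be tested were the oxidase subunits Nox1, Nox3, Duox1 and Duox2, and Rac2 and Acox2.

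Around the superoxide dismutases, a list of 5 genes of copper supply and extracellular dismutase gave 1 rise and 2 falls (median -0.25). That is 60%, against 43.1% of all genes tested. Sod3, the extracellular dismutase, fell from 45.7 ± 0.719 to 17.8 ± 2.29 CPM (mean ± SD of n = 3; edgeR: -1.35 on the log2 scale, adjusted p = 5.13e-07), unlike Sod1 and Sod2. Atox1 and Atp7a, a copper chaperone and a copper pump, had log2 fold changes of -0.39 and 0.43; that of Atox1 turned to 0.23 after the GC and length offset, and that of Atp7a did not pass there (0.31, edgeR adjusted p = 0.0772; 0.00206 to 0.0893 over its alternatives). Atox1 also lost its call without DMSO replicate 1 or 2 or erastin replicate 2 or 3 (edgeR adjusted p = 0.0582, 0.123, 0.0616 and 0.0625), and Atp7a without DMSO replicate 3 or erastin replicate 1 or 3 (0.0893, 0.0814 and 0.0850). Of 8 genes of mitochondrial protein quality and FOXO or sirtuin control, 6 rose and 0 fell (median 0.46). These make up 75% of the list, against 43.1% of all genes tested. The count of falls was 0 also by an unadjusted p-value under 0.05 and by DESeq2. The smallest p-values were those of Lonp1, Hspa9 and Hspd1, with log2 fold changes of 0.88, 0.67 and 0.54. The mitochondrial members Prdx3 and Prdx5 fell and Sod2 did not pass.

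Of 19 genes of peroxisome assembly and membrane, the compartment of catalase, 5 rose and 3 fell (median 0.011), or 42.1%, against 43.1% of all genes tested. Pex11a, which acts in peroxisome division, rose from 2.86 ± 1.1 to 7.59 ± 1.34 CPM (mean ± SD of n = 3; edgeR: 1.39 on the log2 scale, adjusted p = 0.00282). Pxmp4 and Pex6 fell by 1.09 and 0.56.

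**Figure D5:**
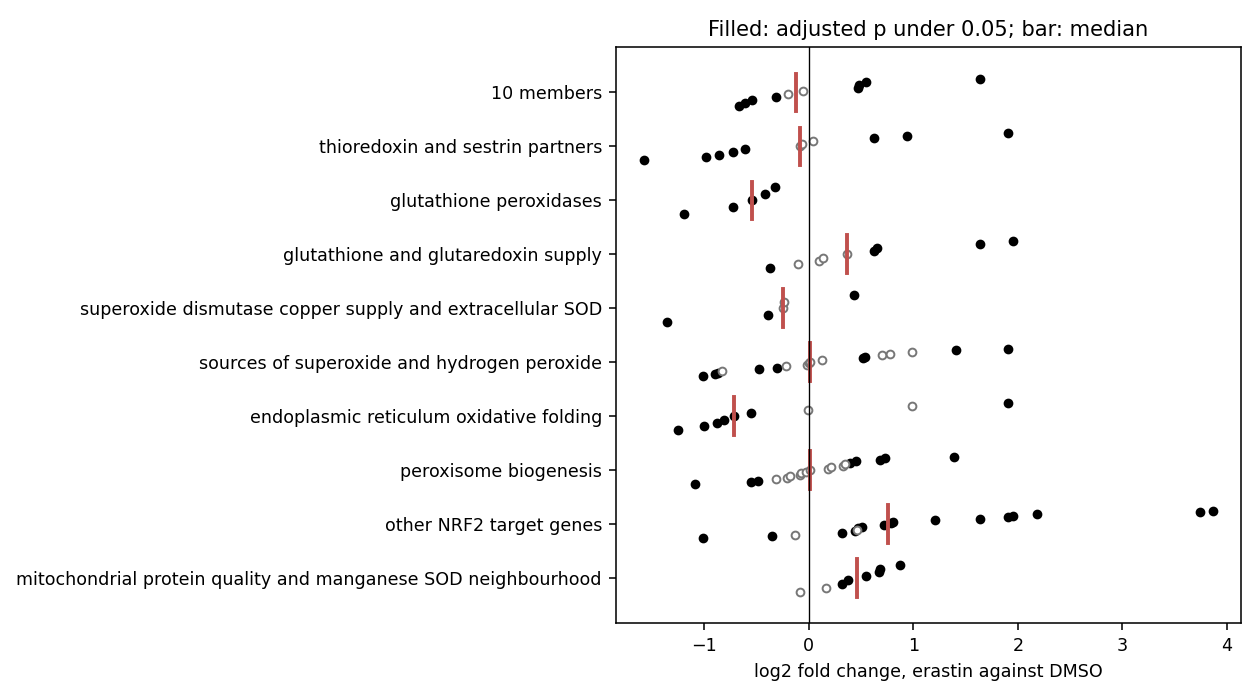
Log2 fold change, erastin against DMSO, of the tested genes of each list (filled, adjusted p-value under 0.05; open, not past it) with the median as a bar; some genes are in more than 1 list. The glutathione peroxidases lie below 0 throughout (median -0.54), the other NRF2 targets reach 3.86, and the 10 members range from -0.67 to 1.64.

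The genes nearest to 3 of the members in pattern were sought among 8836 others with a mean of at least 10 CPM, by the root mean square distance of centred log2 CPM over the 6 libraries. For Srxn1 they were Cttnbp2nl (0.066), the metallothionein gene Mt1 (0.083) and Noct (0.083). Those of Cat were Mkrn1 (0.031), Mta2 (0.033) and Tmem268 (0.033). Sod2 had Tpra1 (0.039), Psmg1 (0.051) and E130309D02Rik (0.052) nearest, with log2 fold changes of -0.04 to -0.06.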

How the data were processed

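Per the labels' protocols, total RNA from 3 DMSO and 3 erastin MEF cultures was depleted of ribosomal RNA, and Ion Total RNA-seq libraries were sequenced on an Ion Proton. The authors deposited raw read counts per gene, without normalization; the submitters' processing notes name mm10, HTSeq 0.9.1 and SAMtools. Aligner, annotation, strand setting and the handling of reads matching several genes are not given in the sources used here. Groups came from the sample titles and columns from the sample numbers in the descriptions; 0 columns were left out. Identifiers were matched without version to GENCODE M21 (GRCm38, the same build as mm10), 42462 of 43346 (98%); coordinates and lengths come from there.

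Counts were fitted with edgeR 4.0.16 (limma 3.58.1, R 4.3.3): filterByExpr (minimum count 10 in 3 libraries, total 15), TMM factors on the counts of the 14000 genes kept, glmQLFit and glmQLFTest with treatment as the single term, and Benjamini-Hochberg adjustment over all genes tested. SEs were derived from the F statistics. No molecular identifiers are described, so floors cover counting error only. The script was tested on simulated data with 200 changed genes. Named genes were the 10 members, of each list the 3 genes with the smallest p-value and up to 3 called against its majority, the nearest patterns, and overlapping genes or copies. Txn1, Txn2, Sesn1, Sesn3, Taldo1, Pgd, Nox4, the low Nox and Duox genes and, among markers, those carrying a sum were named after their values were seen. A gene that this rule names is not reported here. Members, lists and motifs were chosen with earlier results of these data known. Alternatives were RLE and upper-quartile factors, total-count scaling, 2 other filters, a replicate block, each library left out, DESeq2 1.42.0, an adjusted p-value under 0.01, GC and length offsets (mgcv 1.9.3) and thinning; the separate GC and length offsets and coding-transcript lengths were added after the data were seen.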

Additional observations from a re-analysis of the deposited data

How the results depend on the processing

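The counts of members past the threshold were 7 to 9 over the 20 alternatives, always with 4 higher and with 3 to 5 lower, and 7 of the 10 members kept their direction and call in all 19 alternatives run for each. Prdx3 lost its call with scaling by total count only (log2 fold change -0.25) and with the length offset alone (-0.22), and ran from -0.41 to -0.24 when 1 library was left out. Sod1 passed with the GC and length offset (-0.27; -0.27 with the replicate block as well) and ran from -0.30 to -0.14 when 1 library was left out. Sod2 was 0.0049 with total-count scaling and ran from -0.17 to 0.017 when 1 library was left out. The cause was not tested. For the 6 ratios, the difference between erastin and DMSO stayed within 1 SD (the larger group SD) of its main value in all 60 alternatives. The levels of the ratios were not compared in this way. The coding-transcript length was not among these alternatives.

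The copper and extracellular dismutase list had 3 calls, 1 with a limit of 0.01 on the adjusted p-value, and 1 to 3 when 1 library was left out; the lowest came without erastin replicate 3. The peroxisome list had 8, and 4 at an adjusted p-value under 0.01. All genes past the threshold numbered 6028 and ran from 4305 (adjusted p-value under 0.01) to 6104 (no filter); those higher were 50.2% with TMM, 44% with upper-quartile factors and 57.1% with total-count scaling, with median changes over all genes of -0.0014, -0.055 and 0.065.

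Of the 45 other genes that the naming rule gave and that were tested, 35 kept direction and call. Atox1 was 0.23 with the GC and length offset and 0.23 with the replicate block too. Near 0, Tpra1 was 0.027 with total-count scaling, 0.0696 and 0.0772 with the offset without and with the block, and 0.0016 and 0.0047 after thinning without and with it; Psmg1 was 0.0033, 0.117 and 0.119 under the first 3 of these, and E130309D02Rik 0.0044 under the first. Without 1 library Tpra1 ran from -0.14 to 0.065, Psmg1 from -0.13 to 0.0074 and E130309D02Rik from -0.19 to 0.016. To see whether replicate numbers pair libraries, deviations from group means were correlated: the mean was 0.013 for libraries sharing a number and -0.0063 for the others, which gave no pairing. With the replicate block 5882 genes passed, and 8 members.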
